A study of Homo sapiens with 3 samples.

Results

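Immediate early genes and the phosphatases that shut off their signal were followed across 3 libraries of polyadenylated RNA from Jurkat cells, an established human T-lineage leukaemia line. The 10 genes were the transcription factor genes EGR1, NR4A1, FOS, JUN, JUNB and JUND, the immediate early response genes IER2 and IER5, and the phosphatase genes DUSP2 and DUSP6. They were chosen with earlier results of these data known and taken by symbol, and all 10 were among the 17329 genes of the table. Their mean over the 3 libraries reached the floor of 50 normalized counts used here in 8 cases, out of 12292 genes in all, and FOS and DUSP6 stayed under it. Cells were kept for 48 hours in RPMI medium with fetal bovine serum, to which 50 mM sodium oxamate together with 10 mM L-sodium lactate (oxamate+lactate), 50 mM sodium oxamate alone (oxamate) or nothing (control) had been added. Oxamate inhibits lactate dehydrogenase, and the series asked how a histone mark that depends on lactate relates to transcription. There was 1 library for each of the 3 conditions. No test was therefore possible, nothing below was checked against a replicate, and "higher" and "lower" compare single libraries.

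Immediate early genes are the genes a cell transcribes first after a signal, without new protein synthesis. In T cells the antigen receptor acts through RAS and the MAP kinase ERK, which activates ternary complex factors bound beside serum response factor, and through calcium, which acts on CREB and MEF2 factors. The products include EGR1 and the FOS and JUN proteins, which pair as the AP-1 factor, and the phosphatases of the DUSP family, which remove phosphate from MAP kinases and so end the signal. Many of these transcripts are short-lived, since AU-rich elements in them recruit decay factors.

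The values are normalized counts as the authors deposited them, and the depth in reads is not known. They summed over genes to 8171633 in oxamate+lactate, 8821115 in oxamate and 8220199 in control. Of the 11 T-lineage markers listed, all were in the table and 10 were over the floor, and together they had 15736 normalized counts in oxamate+lactate, 17452 in oxamate and 15046 in control. None of the 5 myeloid markers had a row in the table used here, and the B-lineage, NK, epithelial and fibroblast markers summed to at most 202 per list and library. ERCC spike-in RNAs with a mean of at least 100, of which there were 18, had log2 ratios with an SD of 0.13 for oxamate against control, 0.11 for oxamate+lactate against oxamate and 0.19 for oxamate+lactate against control. Their medians were 0, -0.083 and -0.08 in the same order. The spike-ins entered with the extracted RNA, so their spread leaves out differences between cultures. Over all genes over the floor, the log2 ratios had medians of 0.08, -0.09 and -0.01 in these comparisons, with SDs of 0.38, 0.19 and 0.31. Scaling the columns to equal totals moved the first median to -0.02 and the second to 0.02.

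In oxamate, 9 of the 10 genes had their highest value of the 3 libraries, and control had the lowest value of the same 9. The exception to both was DUSP6. Over all genes over the floor, oxamate was highest for 50.8% and control lowest for 43.8%. Against control, the 8 members over the floor had a median log2 ratio of 0.57, beside 0.08 over all genes, and each lay above that median. At least 1.5-fold higher in oxamate were EGR1, DUSP2 and JUN, 3 of the 8, where 7.48% of all genes over the floor were, and at least 2-fold higher were EGR1 and DUSP2, where 1.21% of all genes were. No member over the floor was 1.5-fold lower, where 3.98% of all genes were. These shares move with the scaling: 920 genes were 1.5-fold higher and 489 lower as deposited, against 569 and 702 with equal totals. Because the members were chosen with earlier results of these data known, the contrasts with all genes describe the set and do not test it. In bulk RNA, fewer cells expressing a gene and less of its RNA per cell cannot be told apart.

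**Figure D1:**
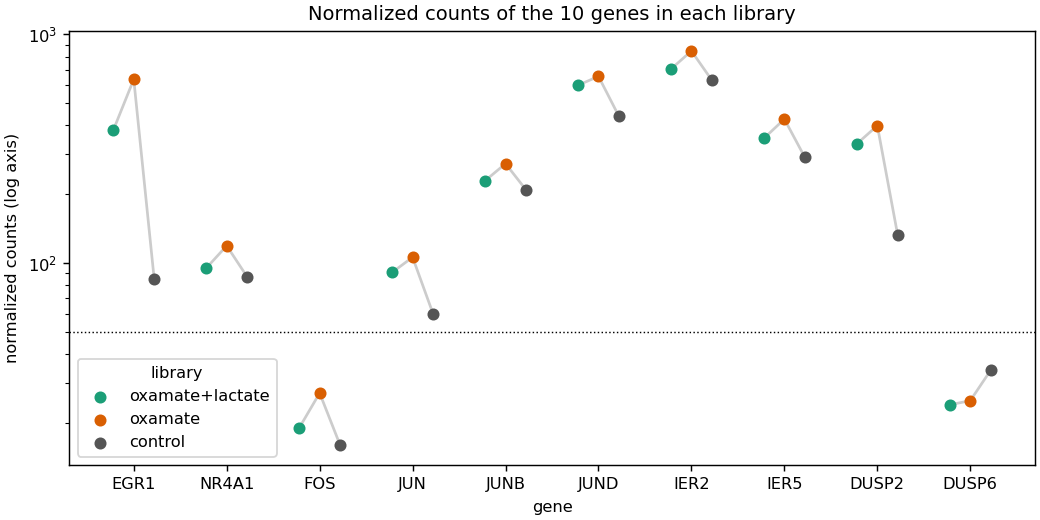
Normalized counts (log axis) of the 10 genes, with 1 point per library in the order oxamate+lactate, oxamate and control, and a dotted line at the floor of 50. EGR1 stands at 636 in oxamate against 85 in control and DUSP2 at 399 in oxamate against 132 in control, and FOS and DUSP6 lie under the floor in every library.

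EGR1, a zinc finger factor that binds GC-rich sites, stood furthest from control. It had 381 normalized counts in oxamate+lactate, 636 in oxamate and 85 in control. Both treated libraries were far above control, and the one with lactate was below the one without. For oxamate against control the log2 ratio was 2.89, or 7.41-fold higher, which ranked 1 of the 12292 genes over the floor. For oxamate+lactate against control it was 2.15, or 4.44-fold higher, ranking 2. For oxamate+lactate against oxamate it was -0.74, or 1.67-fold lower, ranking 26 from the bottom. EGR1 shares no exon bases with another gene in GENCODE 29.

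DUSP2, a nuclear phosphatase of ERK found mainly in blood cells, had 332 normalized counts in oxamate+lactate, 399 in oxamate and 132 in control. The pattern was high in both treated libraries and low in control. The log2 ratio was 1.59 for oxamate against control, or 3.01-fold higher, ranking 19 of the genes over the floor, and 1.32 for oxamate+lactate against control, or 2.5-fold higher, ranking 21. Between the treated libraries it was -0.26, beside the all-gene median of -0.09. DUSP6, a cytoplasmic phosphatase of ERK whose transcript usually follows ERK activity, went the other way at a low level. It had 24 in oxamate+lactate, 25 in oxamate and 34 in control, all under the floor, and the log2 ratio was -0.43 for oxamate against control and -0.49 for oxamate+lactate against control.

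Promoter sequence is shown for the 3 genes over the floor that were at least 1.5-fold higher in oxamate. That of DUSP6, under the floor and the member that was lower, is set beside them. FOS, also under the floor, was 1.65-fold higher in oxamate, and its window is not shown. Each line holds the 250 bases before the annotated start, 5′ to 3′ on the gene's strand, from RefSeq on GRCh38.p14. The submitters' processing notes name hg19, another build, so these coordinates do not belong to the deposited table. Capitals mark the CArG box, the site of serum response factor, with at most 1 mismatch in its inner part, and TGACG, the core of the cyclic AMP response element, on either strand. EGR1 is on chr5:138465229-138465478 (plus strand), DUSP2 on chr2:96145441-96145690 (minus), JUN on chr1:58784048-58784297 (minus) and DUSP6 on chr12:89352502-89352751 (minus).
EGR1: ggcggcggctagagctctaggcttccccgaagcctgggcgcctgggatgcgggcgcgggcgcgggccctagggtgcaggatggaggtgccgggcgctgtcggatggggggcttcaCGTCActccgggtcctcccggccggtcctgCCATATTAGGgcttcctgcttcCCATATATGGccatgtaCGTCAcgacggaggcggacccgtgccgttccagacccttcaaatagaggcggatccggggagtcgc
DUSP2: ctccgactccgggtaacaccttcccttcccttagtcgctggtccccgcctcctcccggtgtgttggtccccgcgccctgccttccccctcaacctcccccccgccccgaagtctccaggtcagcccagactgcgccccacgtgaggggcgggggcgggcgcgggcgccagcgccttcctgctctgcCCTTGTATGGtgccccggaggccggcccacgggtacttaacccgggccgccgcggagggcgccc
JUN: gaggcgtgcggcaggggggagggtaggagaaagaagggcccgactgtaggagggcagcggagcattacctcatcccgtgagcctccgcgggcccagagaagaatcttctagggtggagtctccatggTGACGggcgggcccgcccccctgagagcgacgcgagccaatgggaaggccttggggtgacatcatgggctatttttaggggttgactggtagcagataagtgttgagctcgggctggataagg
DUSP6: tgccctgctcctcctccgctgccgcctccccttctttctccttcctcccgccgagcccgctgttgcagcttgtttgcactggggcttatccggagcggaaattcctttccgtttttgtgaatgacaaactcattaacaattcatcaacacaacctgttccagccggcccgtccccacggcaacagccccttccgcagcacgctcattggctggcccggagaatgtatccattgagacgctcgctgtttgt

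The EGR1 window held an exact CArG box, CCATATTAGG, from base 105 to base 96 before the start, and another, CCATATATGG, from base 83 to base 74. It also held the core CGTCA, the reverse complement of TGACG, at bases 135 to 131 and 66 to 62. An exact CArG box was found in EGR1 only among the 10 genes, and in 1.16% of all 35116 promoter windows and 1.03% of the 13351 windows of genes over the floor. DUSP2 held a box with 1 inner mismatch, CCTTGTATGG, at bases 64 to 55. Boxes with at most 1 inner mismatch occurred in 7.04% of all windows and 6.09% of those of genes over the floor. The FOS window held none, and the search did not reach further upstream than 250 bases.

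The TGACG core was present in 6 of the 10 genes (EGR1, FOS, IER2, JUN, JUNB and JUND), in 21.2% of all windows and in 28.2% of those of genes over the floor. The complete element TGACGTCA, which contains the core, was in JUND, at bases 200 to 193, in 1.65% of all windows and in 2.59% of those of genes over the floor. GGGCGG, the GC box of SP1, was in 6 genes and in 42.6% of all windows. Its share of 64.3% among windows of genes over the floor is above that of the members. GCGNGGGCG, the EGR site, was in DUSP2 and EGR1, in 8.41% of all windows and in 13.6% of those of genes over the floor. DUSP2 held 2 EGR sites. The one at bases 103 to 95 overlaps GC boxes, and the one at bases 93 to 85 does not. TATAA was in FOS, IER5, JUNB and JUND, in 18.9% of all windows and in 10.4% of those of genes over the floor. TGANTCA, a short form of the AP-1 site, was in none of the 10. It was in 6.57% of all windows and in 4.07% of those of genes over the floor. Longer forms of the AP-1 site were not searched. The JUN window holds TGACATCA, a letter longer, which this search could not match. All motifs were searched on both strands, and NR4A1 has 2 windows in the table, which were counted as 1 gene. The members are counted by gene and the percentages by window, so the units are unlike. By gene, over the floor and with a window, the core was in 3333 and absent from 5716. GGGCGG was in 6896 and absent from 2153. The EGR site was in 1657 and absent from 7392, and TATAA was in 1218 and absent from 7831. Among genes over the floor that were matched to a window, those with an exact CArG box, 130 in number, had a median log2 ratio of 0.10 for oxamate against control. The 8919 without had 0.08. Genes over the floor without a matched window are in neither group. At least 1.5-fold higher were 6.92% of those with the box and 6.87% of those without. A match of letters describes the window and is not a bound site.

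The JUN family showed smaller and graded differences. JUN, the AP-1 subunit whose gene AP-1 itself can activate, had 91 normalized counts in oxamate+lactate, 106 in oxamate and 60 in control. Control was the lowest, and the treated libraries lay close to each other. Its log2 ratio was 0.81 for oxamate against control, or 1.75-fold higher, and 0.59 for oxamate+lactate against control, or 1.51-fold higher, which is just past 1.5-fold.

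JUND, a subunit held at a steady level in resting cells and often opposed to JUN in growth control, had 599 in oxamate+lactate, 655 in oxamate and 438 in control. Its oxamate ratio was 0.58, or 1.49-fold higher, just short of 1.5-fold, and its ratio with lactate against control was 0.45. JUNB, a subunit that restrains JUN at many targets, had 229 in oxamate+lactate, 272 in oxamate and 209 in control. Its log2 ratios were 0.38 for oxamate against control and 0.13 for oxamate+lactate against control, and that with lactate was -0.006 with the median of its GC bin subtracted, so oxamate+lactate was near control. JUNB shares 259 exon bases with HOOK2 on the opposite strand. The library kit does not mark strand, and HOOK2 had 398 in oxamate+lactate, 445 in oxamate and 380 in control, a log2 ratio of 0.23 for oxamate against control, so reads of the pair cannot be told apart in the shared bases.

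FOS, the partner of the JUN proteins in AP-1, was low in every library, at 19 normalized counts in oxamate+lactate, 27 in oxamate and 16 in control. Its log2 ratio of 0.72 for oxamate against control was 0.51 with a pseudocount of 10 in place of 1. NR4A1, the orphan nuclear receptor NUR77, which is induced by antigen receptor signals and used as their reporter, had 95 in oxamate+lactate, 119 in oxamate and 87 in control. Its log2 ratio was 0.45 for oxamate against control and 0.13 for oxamate+lactate against control. Among genes with a mean of 50 to 200, such as NR4A1 and JUN, 10.6% were higher in oxamate by 1.5-fold or more and 8.16% lower, against 7.48% and 3.98% over all genes over the floor.

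IER2 and IER5, immediate early nuclear proteins of one small family, differed between libraries by similar amounts. IER2 had 705 normalized counts in oxamate+lactate, 846 in oxamate and 630 in control, with log2 ratios of 0.42 for oxamate against control and 0.16 for oxamate+lactate against control. IER5, which has been described as a regulator of the heat shock factor HSF1, had 351 in oxamate+lactate, 426 in oxamate and 290 in control, with ratios of 0.55 for oxamate against control and 0.28 for oxamate+lactate against control. In each gene, oxamate was the highest library and control the lowest. IER2 shares exon bases with an antisense gene in the annotation that is not a row of the table, and so do DUSP6 and, with a long noncoding gene, NR4A1.

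Per kilobase of annotated exon, JUND had the highest level of the 10 in every library, with 322 normalized counts per kilobase in oxamate+lactate, 352 in oxamate and 235 in control, followed by IER2 with 230 in oxamate+lactate, 275 in oxamate and 205 in control. In oxamate, DUSP2 (206 per kilobase) and EGR1 (203 per kilobase) came next, at nearly the same level, ahead of JUNB (150 per kilobase). In control, JUNB came next (115 per kilobase), ahead of IER5 (69.2), DUSP2 (68.3) and EGR1 (27.1). JUN, NR4A1, FOS and DUSP6 were the lowest 4 in all 3 libraries, at most 29.9 per kilobase. The length used is the union of exons over all annotated transcripts, from 1820 bases for JUNB to 7295 for NR4A1. A long union lowers the level, and which transcripts were expressed was not examined, so the order depends on the annotation. Without replicates, the order of neighbours as close as IER5 and DUSP2 in control has no measured error.

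**Figure D2:**
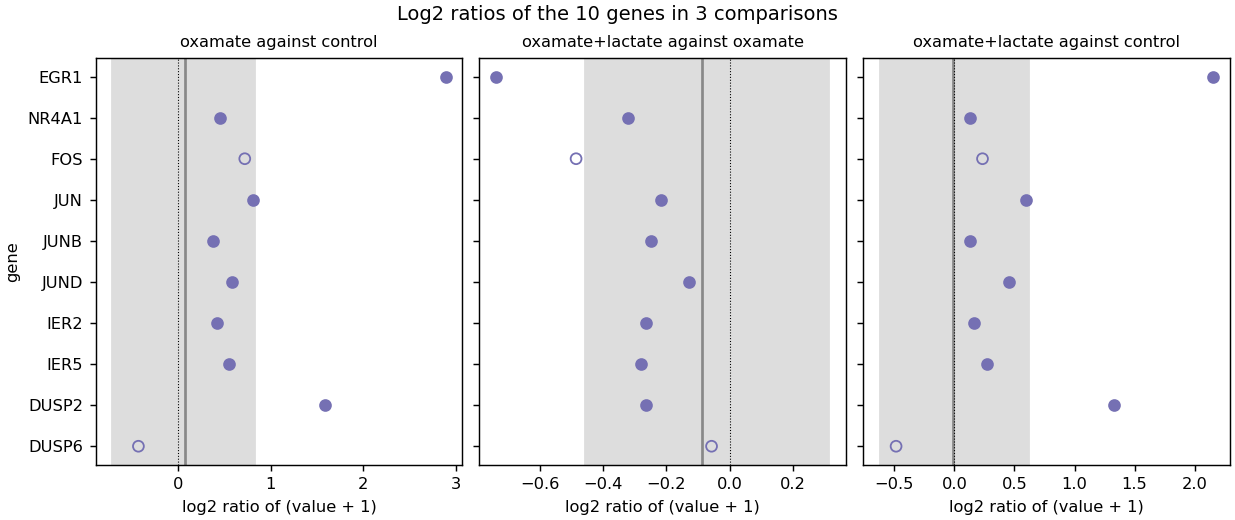
Log2 ratios of (value + 1) of the 10 genes in the 3 comparisons, each panel with its own axis. Filled points are genes over the floor and open points FOS and DUSP6. The grey band holds the central 95% of the genes over the floor and the grey line is their median. EGR1 lies outside the band in all 3 panels and DUSP2 in the 2 against control. FOS lies just outside it for oxamate+lactate against oxamate.

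With lactate added to oxamate, the genes were lower than with oxamate alone, by small amounts. The 8 members over the floor had a median log2 ratio of -0.26, beside -0.09 over all genes, and each lay below that median. With columns scaled to equal ERCC sums, these medians were -0.2 and -0.025. EGR1 was 1.67-fold lower and was the only one of the 8 past 1.5-fold, where 0.903% of all genes over the floor were at least 1.5-fold lower. None was 1.5-fold higher, where 0.252% of all genes were. Next to EGR1 came NR4A1 at -0.32, IER5 at -0.28, DUSP2 and IER2 at -0.26, JUNB at -0.25, JUN at -0.22 and JUND at -0.13. Once the all-gene median was subtracted, JUND was at -0.04 and EGR1 at -0.65, and with the median of its GC bin subtracted JUND was at 0.001, no longer lower. As deposited 31 genes were 1.5-fold higher and 111 lower, against 78 and 42 with equal totals.

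Oxamate+lactate against control gave a median of 0.36 for the 8 members, beside -0.01 over all genes, and each lay above that median. This comparison uses the same control library as oxamate against control, so the values of the pair are given side by side and are not independent. At least 1.5-fold higher were EGR1, DUSP2 and JUN, where 2.99% of all genes were. JUN fell short of 1.5-fold, which left 2 members, with a pseudocount of 10 (0.53) and with the median of its GC bin subtracted (0.54). At least 2-fold higher were EGR1 and DUSP2, where 0.545% were. None was 1.5-fold lower, where 3.07% of all genes were. JUNB, IER2 and NR4A1 were within 0.17 of control on the log2 scale. As deposited 367 genes were 1.5-fold higher and 377 lower, against 507 and 266 with equal ERCC sums.

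GC content moved with these ratios. The longest transcripts of the 10 genes had GC contents from 46.7% for DUSP6 to 69.7% for JUND, with a median of 58.2%, against 48.2% over the genes over the floor. Of the 1608 genes with more than 60% GC, 15.7% were at least 1.5-fold higher in oxamate, with a median log2 ratio of 0.25, while of the 9598 with at most 60%, 5.44% were, with a median of 0.05. When the median ratio of genes in the same GC bin was subtracted, an adjustment chosen after the data were seen, EGR1 was at 2.71, DUSP2 at 1.34, JUN at 0.61 and IER5 at 0.47. FOS was then at 0.57, JUND at 0.29, NR4A1 at 0.23, IER2 at 0.175 and JUNB at 0.09. The part of GC content in the ratios was not tested. JUN, JUNB and IER5 have a single exon in every coding transcript annotated, and JUND and IER2 in at least 1 of theirs.

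**Figure D3:**
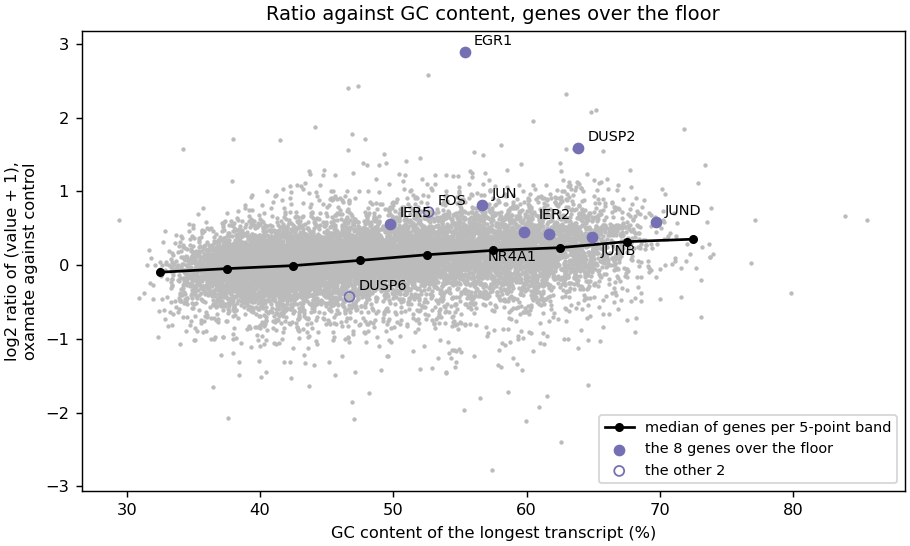
Log2 ratio of (value + 1), oxamate against control, on the vertical axis against GC content of the longest transcript, for genes over the floor (grey) and the 10 genes (filled for the 8 over the floor, open for FOS and DUSP6). The black line joins the medians of 5-point GC bands and climbs to the right; EGR1 at 55.4% GC and DUSP2 at 63.9% stand well above it, and JUNB and IER2 close to it.

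Genes of the same pathway were read from 8 lists, and a log2 ratio given in brackets below is that of oxamate against control. Beside the counts past 1.5-fold among list genes over the floor stand the shares over all such genes. These were 7.48% higher in oxamate and 3.98% lower. Among other immediate early factors, 14 of 20 were in the table and 8 over the floor, with a median log2 ratio of 0.35. Past 1.5-fold, 2 of these 8 were higher in oxamate and 1 was lower. KLF2, a factor of T-cell quiescence, had 1223 in oxamate+lactate, 1922 in oxamate and 446 in control (2.11). MYC, a driver of cell growth, had 3922 in oxamate+lactate, 5299 in oxamate and 2739 in control (0.95). In both, as in EGR1, the oxamate library was highest and control lowest. That order is common: over all genes over the floor, oxamate was highest for 50.8% and control lowest for 43.8%. ATF3, a stress-induced AP-1 partner, went the other way, with 147 in oxamate+lactate, 101 in oxamate and 167 in control (-0.72), and its log2 ratio for oxamate+lactate against oxamate was 0.54. KLF10, a factor induced by TGF-beta, had 96 in oxamate+lactate, 89 in oxamate and 125 in control (-0.49).

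The other MAP kinase phosphatases did not share one direction. Of 12, 11 were in the table and 6 over the floor, with a median log2 ratio of -0.01, and past 1.5-fold 2 were higher and 0 lower. DUSP7, a cytoplasmic ERK phosphatase, had 502 in oxamate+lactate, 609 in oxamate and 350 in control (0.80). DUSP1, itself an immediate early gene, had 95 in oxamate+lactate, 119 in oxamate and 72 in control (0.72). These were the 2 past 1.5-fold. STYX, a catalytically inactive relative, had 338 in oxamate+lactate, 336 in oxamate and 439 in control (-0.38).

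Of the ERK feedback and output genes, 13 of 15 were in the table and 4 over the floor, with a median log2 ratio of 0.34 and 1 past 1.5-fold, upward. That was SPRY1, an inhibitor of RAS signalling, with 97 in oxamate+lactate, 107 in oxamate and 43 in control (1.30). SPRY2, of the same family, had 236 in oxamate+lactate, 265 in oxamate and 179 in control (0.56). The log2 ratios of SPRED1 and SPRED2, which encode related inhibitors, were -0.04 and 0.13. Under the floor lay 20 further genes of these 3 lists, 8 of them at least 1.5-fold higher in oxamate and 6 lower, where 24.5% of all 5037 genes under the floor were higher and 22.7% lower. The highest and the lowest of each list are named here, a choice made after their values were seen. EGR3 had 12 in oxamate+lactate, 16 in oxamate and 1 in control, and IER3 had 50 in oxamate+lactate, 29 in oxamate and 48 in control. DUSP5, a nuclear ERK phosphatase, had 24 in oxamate+lactate, 21 in oxamate and 7 in control, and DUSP4, another nuclear phosphatase, had 13 in oxamate+lactate, 8 in oxamate and 20 in control. SPRED3 had 4 in oxamate+lactate, 19 in oxamate and 4 in control, and LIF, a cytokine, had 8 in oxamate+lactate, 10 in oxamate and 25 in control. At these low levels the genes went in both directions.

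The genes of the kinase cascades upstream spanned a narrower range than the members over the floor. All 20 genes of the RAS-ERK cascade were over the floor, with a median log2 ratio of -0.13 and 14 below the median of all genes. ARAF, a RAF kinase, was the only one past 1.5-fold, with 444 in oxamate+lactate, 576 in oxamate and 359 in control (0.68). The lowest was SOS2, an activator of RAS, at -0.34. None of the 11 JNK and p38 cascade genes over the floor passed 1.5-fold in either direction, and their median was 0.16. In lists this small, such counts lie near the shares over all genes, 7.48% higher and 3.98% lower. The highest was MAPKAPK2, a kinase activated by p38, with 1135 in oxamate+lactate, 1234 in oxamate and 855 in control (0.53).

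Upstream transcription factors had a median log2 ratio of 0.25 over 13 genes. None was past 1.5-fold, where 7.48% of all genes over the floor were higher and 3.98% lower. SRF, serum response factor, had 1411 in oxamate+lactate, 1788 in oxamate and 1212 in control (0.56). Its coactivator gene MKL1 had 460 in oxamate+lactate, 550 in oxamate and 395 in control (0.48). Both were highest in oxamate and lowest in control. CREM, a factor of the cyclic AMP response, had 136 in oxamate+lactate, 124 in oxamate and 173 in control (-0.48).

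Among AP-1 partners and EGR corepressors, 13 genes were over the floor, with a median log2 ratio of 0.16 and 1 past 1.5-fold in each direction. MAF, a basic leucine zipper factor, was higher, with 153 in oxamate+lactate, 194 in oxamate and 36 in control (2.40). JDP2, a repressor of AP-1, was lower, with 140 in oxamate+lactate, 102 in oxamate and 169 in control (-0.72). The EGR corepressor genes parted. NAB2, itself a target of EGR1, had 109 in oxamate+lactate, 134 in oxamate and 98 in control (0.45), and NAB1 had 271 in oxamate+lactate, 253 in oxamate and 347 in control (-0.45).

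Of 11 genes of AU-rich transcript decay, 2 were past 1.5-fold upward and none downward. Over all genes over the floor, 7.48% were higher and 3.98% lower. The median log2 ratio of the 11 was 0.07. ZFP36L2 had 2200 in oxamate+lactate, 2746 in oxamate and 1192 in control (1.20). ZFP36, also an immediate early gene, had 297 in oxamate+lactate, 357 in oxamate and 176 in control (1.02). Both encode proteins that bind AU-rich elements and promote decay.

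**Figure D4:**
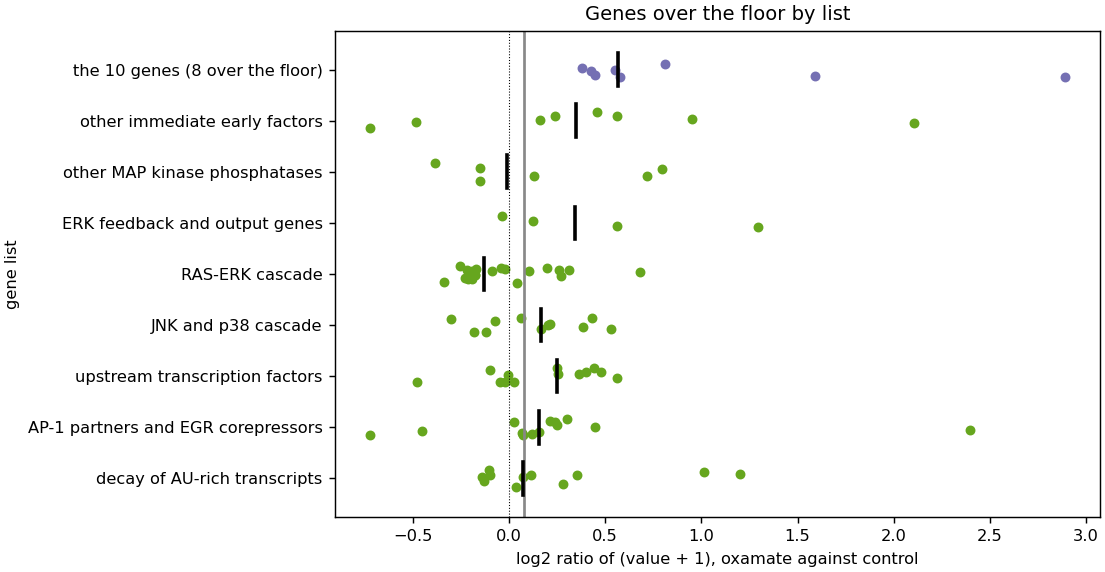
Log2 ratio of (value + 1), oxamate against control, for genes over the floor, 1 point per gene and 1 line per list, with black bars at list medians and the grey line at the median of all genes. The 8 members lie from 0.38 to 2.89, and the RAS-ERK cascade from -0.34 to 0.68.

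The genes most like EGR1 were sought by distance between pairs of log2 ratios (oxamate against control and oxamate+lactate against control, 3 libraries in all). The nearest 5 of the genes over the floor were MAF at a distance of 0.50, KRT1 at 0.54, CEBPE at 0.58, AC004840.9 at 0.67 and GUSBP3 at 0.90. KRT1 had 48 normalized counts in oxamate+lactate, 89 in oxamate and 14 in control, and CEBPE had 89 in oxamate+lactate, 109 in oxamate and 21 in control. DUSP2 was the nearest of the other members, in place 19 at a distance of 1.54. For DUSP2 itself the nearest were RP11-286H15.1 at 0.020, DPYSL5 at 0.043, ADAMTS7 at 0.11, RP11-973H7.1 at 0.13 and AC005943.5 at 0.14. JUN was the nearest member to it, in place 280. All 10 neighbours named had under 200 normalized counts in every library. In control all of them were under 50, from 10 in GUSBP3 to 47 in RP11-286H15.1. They thus reached the floor through the treated libraries, and their ratios against control rest on low control values.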

How the data were processed

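Polyadenylated RNA of 3 Jurkat cultures was sequenced, with ERCC spike-in RNA added to total RNA from equal cell numbers, per the labels' protocols. The submitters' processing notes name the build hg19 and the tools HTSeq 0.11.2, STAR 2.7.1a and FastQC 0.11.9, without roles. The authors deposited whole-number normalized counts for 17365 rows, treated here as a score rounded after normalization. Their normalization and annotation, and any filter on genes, were not stated in the sources used here. Depth in reads is unknown, so no counting interval is given and no count model was fitted.

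Samples were grouped by treatment label. The 36 ERCC rows were set aside. Ratios are log2((value + 1)/(value + 1)), which understates changes of low genes. Folds come from the same ratios. The floor was a mean of 50 over the 3 libraries. No test was possible. The members and lists were chosen with earlier results of these data known. Named genes were all 10 members, the 2 highest and 2 lowest of each list by the oxamate ratio, and the 5 nearest neighbours of EGR1 and of DUSP2. Some genes that this rule named within 1.5-fold of control are left to the counts. Exon length and GC content came from GENCODE 29, on another build, and matched 91.2% of the genes over the floor. Promoters came from RefSeq, matched by symbol for all 10 genes. A comparison of JUN family proteins that had been planned was not made. The computation was tested on simulated libraries. Python 3.11.15, numpy 2.4.6, pandas 2.3.3 and matplotlib 3.10.9 were used.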

Additional observations from a re-analysis of the deposited data

How the results depend on the processing

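Ratios were recomputed with pseudocounts of 0.5 and 10, floors of 10, 200 and none, a fold of 2, columns scaled to equal totals, to equal ERCC sums or to the median ratio of all genes, and, chosen after seeing the data, with the median of the same of 20 GC bins subtracted. A value was said to move when it shifted by more than the SD of the ERCC log2 ratios of that comparison, and a count when it changed by over 1.5 times. Of 87 recomputed medians and counts, 83 did not move. Small counts had little room to move by this rule, since a step from 3 to 2 or to 4 was not a move. The floors and the fold of 2 also reused the same ratios. The member median for oxamate against control was 0.38 after GC subtraction, against 0.57. For oxamate+lactate against oxamate it was -0.15 with equal totals and -0.12 after GC subtraction, against -0.26, and with a fold of 2 the count of lower members was 0, against 1. Of 150 single-member ratios, 17 moved without a change of sign, most of them after GC subtraction. For oxamate against control, that setting moved EGR1, FOS, JUN, JUNB, JUND, IER2, DUSP2 and NR4A1. JUNB was then at 0.09, against 0.38. IER5 and DUSP6 did not move there. A further 6 ratios changed sign, all of them small. For oxamate+lactate against oxamate, DUSP6 was 0.049 with equal totals, 0.004 with equal ERCC sums, 0.031 with the median of all genes set to 1 and 0.008 after GC subtraction, and JUND was 0.001 after GC subtraction. For oxamate+lactate against control, JUNB was -0.006 after GC subtraction. In that comparison JUN also fell short of 1.5-fold after GC subtraction and with a pseudocount of 10, which left 2 members higher, against 3. The cause of these changes was not tested. EGR1 ranged from 2.71 to 2.89 and DUSP2 from 1.34 to 1.59 for oxamate against control over these settings. No library could be left out, and no paired analysis was possible because each condition has 1 library.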
